A study of Mus musculus with 9 samples.

Results

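The insulin-like growth factor (IGF) family was followed in the gastrocnemius muscle of newborn mice through 10 genes: the ligands Igf1 and Igf2, the receptors Igf1r and Igf2r, and the binding proteins Igfbp2, Igfbp3, Igfbp4, Igfbp5, Igfbp6 and Igfbp7. The genes were taken by symbol from a table of 55471 Ensembl genes, and each symbol matched 1 row. RNA was taken at postnatal day 0 to 1 of 5 *Shank3Δ11(−/−)* mice (KO1 to KO5) and 4 *Shank3(+/+)* mice (WT1 to WT4), with 1 library per mouse, and the labels give the strain background of both groups as C57BL/6. The *Shank3Δ11(−/−)* mice are constitutive homozygotes bred from heterozygous C57BL/6JRj parents, they carry a deletion of exon 11 of Shank3, and per the study the long SHANK3 isoforms are reduced while certain others remain. The study left KO2 and KO4 out of its analysis, naming too few reads, so values are given for the other 7 mice and again for all 9. In the deposited table KO4 has the highest total of the 9, and KO2 has a higher total than KO5.

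IGF1 and IGF2 are secreted hormones related to insulin, and both drive growth of muscle before and after birth. Both act through the receptor tyrosine kinase IGF1R, while IGF2R takes up IGF2 and carries it to lysosomes. Igf2 is imprinted, expressed from the paternal copy and most active in the fetus, and Igf1 becomes the main ligand after birth. Binding proteins hold the ligands outside the cell, extend their life and release or withhold them, and IGFBP5 is made in large amounts by differentiating muscle cells. IGFBP7 is a related protein with low affinity for the IGFs.

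The Shank3 row held 29.3 CPM in KO1, 25.7 in KO2, 31.0 in KO3, 35.0 in KO4 and 34.4 in KO5, and 32.8, 32.9, 32.4 and 38.5 CPM in WT1 to WT4. CPM is the depth-scaled read count, with TMM factors over the 9 mice. The groups overlapped (log2 difference -0.12 ± 0.12, standard error, exact permutation p = 0.343). Since the row counts the whole gene, it does not check the loss of exon 11. Totals ranged from 26444372 to 40471957 counts per mouse. The 7 skeletal muscle markers summed to 50178 to 55216 CPM in *Shank3Δ11(−/−)* and 49077 to 56857 CPM in *Shank3(+/+)*, and each was at 1 CPM or more in every mouse. The mice KO3, KO5, WT3 and WT4 had Xist levels over 100 CPM, and the other 5 mice had 3.23 CPM or less. The libraries of KO1, KO4, KO5 and WT4 stood apart in markers of other tissues. In KO1 the 5 erythroid markers summed to 5771 CPM (1223 to 2192 in the other mice). In KO4 the 5 cartilage markers summed to 213 CPM (36.4 to 70.8 in the other mice), the 4 tendon markers to 647 CPM (267 to 428) and the 6 fibroblast and fibro-adipogenic markers to 21866 CPM (10919 to 17994). In KO5 the 5 adipocyte markers summed to 1126 CPM (186 to 403) and the 4 Schwann cell markers to 411 CPM (94.2 to 199). KO5 was also the lowest mouse for Myh3, the embryonic myosin, at 2093 CPM (4169 to 5781) and the highest for Myh8, the perinatal myosin, at 19500 CPM (13554 to 17125). In WT4 the 5 liver markers summed to 36.6 CPM (at most 0.683), with Alb at 20.5 CPM, and the 5 epidermis markers to 49.5 CPM (6.07 to 23.5). Fewer cells of a type and less RNA per cell cannot be told apart in these bulk libraries.

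The ligands and the binding protein Igfbp5, on which the results below turn, begin at the following sites. Each sequence is the 100 bases before a start site in RefSeq (GRCm38.p6), read 5′ to 3′ on the gene's strand. RefSeq lists 4 starts for Igf2, numbered from the most upstream, and 1 each for Igf1 and Igfbp5. Capitals mark matches, on either strand, to CANNTG (the E-box bound by the MyoD family) and to GGGCGG (the GC box), which do not overlap each other here.
Igf2 start 1: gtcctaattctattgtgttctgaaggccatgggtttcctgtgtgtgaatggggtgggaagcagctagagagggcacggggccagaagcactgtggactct
Igf2 start 2: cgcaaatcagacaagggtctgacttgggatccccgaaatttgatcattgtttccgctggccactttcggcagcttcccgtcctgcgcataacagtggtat
Igf2 start 3: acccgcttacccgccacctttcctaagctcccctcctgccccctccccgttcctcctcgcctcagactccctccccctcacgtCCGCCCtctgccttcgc
Igf2 start 4: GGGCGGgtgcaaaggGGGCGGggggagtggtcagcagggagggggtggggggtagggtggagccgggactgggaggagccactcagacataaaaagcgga
Igf1 start 1: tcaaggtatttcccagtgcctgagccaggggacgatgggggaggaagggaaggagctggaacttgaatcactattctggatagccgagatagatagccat
Igfbp5 start 1: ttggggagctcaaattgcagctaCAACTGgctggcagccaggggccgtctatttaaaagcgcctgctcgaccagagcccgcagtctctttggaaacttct
The stretches lie at chr7:142666817-142666916, chr7:142661272-142661371, chr7:142658805-142658904 and chr7:142657497-142657596 for Igf2, all on the minus strand, at chr10:87861011-87861110 on the plus strand for Igf1 and at chr1:72874866-72874965 on the minus strand for Igfbp5. Start 4 of Igf2 holds 2 matches to GGGCGG and start 3 holds 1, while the Igfbp5 stretch holds 1 match to CANNTG. In the whole windows, 250 bases before to 50 after the start, TATAAA was in none of the windows of these 3 genes, beside 13.6% of all 32851 windows. CANNTG was in 72.3% and GGGCGG in 35.7% of all windows, so a match is no mark of these genes. The deposited counts sum the transcripts of every start, so the use of each Igf2 start was not analysed here.

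The first question was the balance of the ligands at birth. Igf2 (ENSMUSG00000048583, chromosome 7 from 142650766 to 142666816 in GENCODE M21 on mm10) was among the most abundant transcripts of the tissue, ranking 16 of all genes by mean CPM. It stood at 4912 CPM in KO1, 5479 in KO3, 4527 in KO5, 4845 in KO2 and 6082 in KO4, beside 4395, 5270.2, 5039 and 5548 in WT1 to WT4. The genotypes overlapped throughout, and KO4 was the highest and WT1 the lowest mouse. The 7 mice averaged 4972.5 ± 479 CPM (SD, n = 3) for KO and 5063 ± 492 CPM (SD, n = 4) for WT. The edgeR log2 fold change was -0.04 ± 0.13 (standard error), with FDR = 1.00. In all 9 mice it was 0.03 ± 0.12 (2-sided exact permutation test on log2 CPM, p = 0.817).

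Igf1 (ENSMUSG00000020053, chromosome 10 from 87858265 to 87937042) was counted at 415 CPM in KO1, 399 in KO3, 376 in KO5, 373 in KO2 and 459.7 in KO4, beside 429, 412, 375 and 301 in WT1 to WT4. WT4, the library with liver markers, was the lowest of the 9 mice, and the other WT mice lay among the KO mice. KO averaged 396.5 ± 19.6 CPM (SD, n = 3) and WT 379 ± 56.7 CPM (SD, n = 4). The log2 fold change was 0.06 ± 0.13 (standard error) in the 7 mice (exact permutation p = 0.743) and 0.09 ± 0.11 in the 9 (exact permutation p = 0.468), each at FDR = 1.00 in edgeR. Without WT4 the 7-mouse value was -0.03, so 1 library set the sign.

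**Figure D1:**
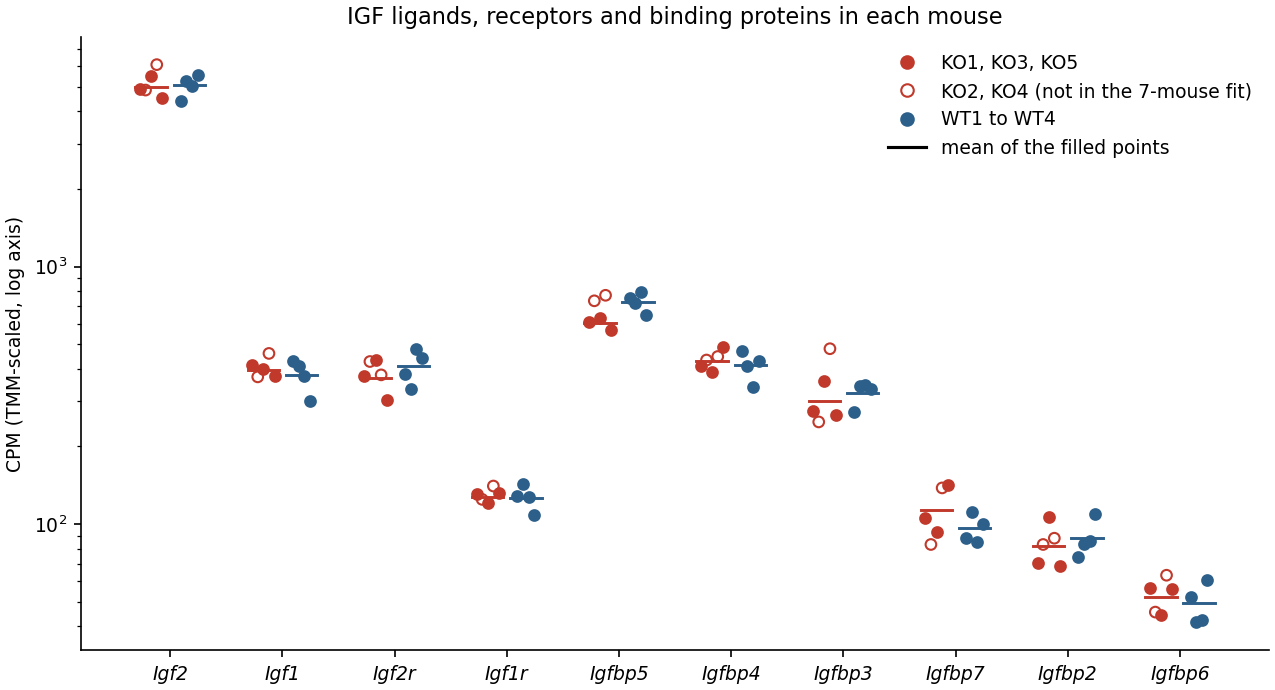
CPM (log axis) of the 10 genes in each of 9 mice, red for *Shank3Δ11(−/−)* and blue for *Shank3(+/+)*, with KO2 and KO4 as open points and lines at the means of the filled points. Igf2 lies between 4395 and 6082 CPM in every mouse, above every other gene, and Igfbp5 is the gene whose filled red points all lie below the blue.

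The Igf2 to Igf1 ratio, which needs no scaling between libraries, was 11.8 in KO1, 13.7 in KO3, 12.0 in KO5, 13.0 in KO2 and 13.2 in KO4, beside 10.2, 12.8, 13.4 and 18.4 in WT1 to WT4. All 5 KO mice fell inside the range of the WT mice, whose highest value was WT4. The mean log2 ratio was 3.65 ± 0.12 (SD, n = 3) and 3.75 ± 0.35 (SD, n = 4), a difference of -0.10 (2-sided exact permutation test p = 0.714, adjusted p = 0.714 over the 2 ratios tested). With 9 mice the difference was -0.07 (exact permutation test p = 0.683), and without WT4 it was 0.05. Per kilobase of merged exons (9.90 kb for Igf1 and 5.72 kb for Igf2) Igf2 exceeded Igf1 by 17.7 to 31.9 times in the 9 mice.

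The Igf2 locus stood in the table under 2 rows. Gm49394 (ENSMUSG00000115302), annotated on the same strand of chromosome 7 from 142650769 to 142669942, shares 3596 exon bases with Igf2, which is 62.8% of the exon length of Igf2. Its count was 91.3% to 96.3% of the Igf2 count in each mouse. Ins2, the insulin gene next to it, had 0 to 8 counts. A read within a shared exon fits both genes, and the rule for counting such reads is not stated in the labels or methods. The Igf2 level is that of the Igf2 row, whose reads cannot be told apart from those of Gm49394.

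**Figure D2:**
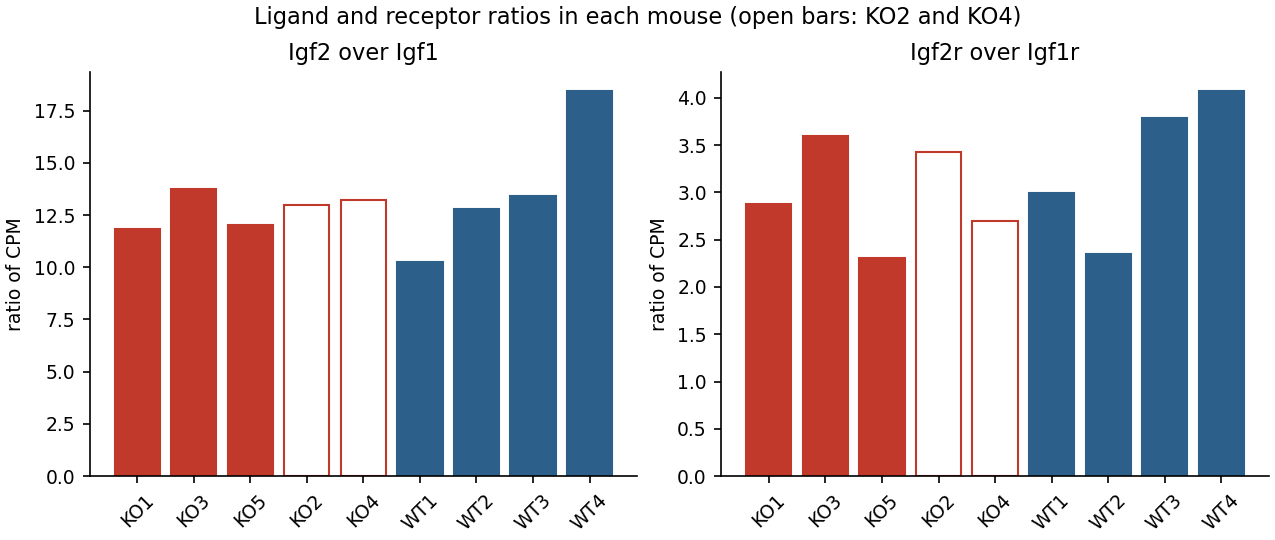
Ratio of Igf2 to Igf1 (left) and of Igf2r to Igf1r (right) in CPM, 1 bar per mouse, red for *Shank3Δ11(−/−)* and blue for *Shank3(+/+)*, with KO2 and KO4 open. The ligand ratio runs from 10.2 in WT1 to 18.4 in WT4, and the receptor ratio from 2.31 in KO5 to 4.07 in WT4.

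The receptors came next. Igf1r (ENSMUSG00000005533, chromosome 7 from 67952827 to 68233668), the signalling receptor, was the least variable member, at 130.5 CPM in KO1, 120.2 in KO3, 132 in KO5, 125 in KO2 and 140.4 in KO4, beside 128, 143, 127 and 109 in WT1 to WT4. Its log2 fold change was 0.00 ± 0.11 (standard error) with FDR = 1.00 in edgeR, and its coefficient of variation over the 9 mice was 7.96%. Igf2r (ENSMUSG00000023830, chromosome 17 from 12682406 to 12769664), the clearance receptor, held 375 CPM in KO1, 432 in KO3, 304 in KO5, 428 in KO2 and 379 in KO4, beside 383, 335, 480.3 and 442 in WT1 to WT4. KO5 was lowest and WT3 highest, and KO1 and KO3 lay within the WT range. Igf2r differed by -0.16 ± 0.16 on the log2 scale in the 7 mice (exact permutation p = 0.457) and by -0.10 ± 0.13 in the 9 (exact permutation p = 0.492), both with FDR = 1.00 in edgeR. With 1 mouse left out the 7-mouse value ranged from -0.28 (without KO3) to -0.04 (without KO5), and it was -0.24 without WT2 and -0.06 without WT3.

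The Igf2r to Igf1r ratio was 2.88 in KO1, 3.59 in KO3, 2.31 in KO5, 3.43 in KO2 and 2.70 in KO4, beside 2.99, 2.35, 3.79 and 4.07 in WT1 to WT4. The mice with high Xist held the highest values of each genotype except KO5, the lowest of all. The difference in mean log2 ratio was -0.16 (2-sided exact permutation test p = 0.486, adjusted p = 0.714 over the 2 ratios). Among the mice with high Xist the difference in log2 Igf2r CPM between KO3 and KO5 and WT3 and WT4 was -0.35, and between KO1 and WT1 and WT2 it was 0.07, and these differences were not tested. With KO2 and KO4 beside KO1 the difference from WT1 and WT2 was 0.14, also not tested. With the Y-linked genes as a covariate Igf2r differed by -0.19 in the 7 mice and by -0.08 in all 9. Airn, an antisense transcript that overlaps the body of Igf2r without sharing an exon, had 4.05% to 7.90% as many counts as Igf2r.

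Among the binding proteins Igfbp5 was the member whose groups separated in the 7 mice. Igfbp5 (ENSMUSG00000026185, chromosome 1 from 72857932 to 72874884) stood at 610.1 CPM in KO1, at 633 in KO3 and at 568 in KO5, beside 756, 721, 795 and 648 in WT1 to WT4. Each of these 3 KO mice was below every WT mouse, with KO3 next to WT4. The mean was 604 ± 33.2 CPM (SD, n = 3) against 730.1 ± 62.3 CPM (SD, n = 4), which is 17.7% lower on the fitted scale. In edgeR its log2 fold change was -0.28 ± 0.11 (standard error), with an unadjusted p = 0.0277, FDR = 1.00 and an exact permutation p = 0.0571. The smallest p that 3 against 4 mice allow in the permutation test is 0.0286. KO2 at 736 CPM and KO4 at 773 CPM were above the WT mean, and in all 9 mice Igfbp5 differed by -0.14 ± 0.11 (exact permutation p = 0.230). Without KO1, the library high in erythroid markers, the 7-mouse value was -0.29, and without KO5, the lowest mouse and the library high in adipocyte and Schwann cell markers and low in Myh3, it was -0.24. The unadjusted p no longer passed 0.05 without KO1, KO5, WT1 or WT3. Igfbp5 therefore passed neither the study's criterion (p below 0.05 with FDR below 25%) nor the separation of groups once KO2 and KO4 were counted.

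All 10 members were abundant enough to be tested. In the 7 mice 1 of them, Igfbp5, had groups without overlap, beside 2.84% of the 21809 genes tested (1.54% higher and 1.30% lower in KO). The edgeR p before adjustment was below 0.05 for the same 1 member, beside 2.08% of all genes (1.16% higher and 0.917% lower). In the 9 mice 0 members were free of overlap, beside 0.686% of 21735 genes (0.322% higher and 0.363% lower). The edgeR p before adjustment was below 0.05 for 0 members there, beside 2.03% (1.16% higher and 0.874% lower). At the study's criterion 0 members and 0% of all genes were called in edgeR in either fit, with an FDR of 1.00 for each member. Of all genes 453 had an unadjusted p below 0.05 in the 7 mice and 442 in the 9. DESeq2 called 6 genes in the 7 mice and limma-voom 0, with no member among them. The study, using limma, reported many differentially expressed genes at this criterion. The reason for that difference from the numbers called here was not tested. The members' median log2 fold change was -0.02 in the 7 mice and 0.03 in the 9, and over all genes it was -0.01 and 0.00.

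**Figure D3:**
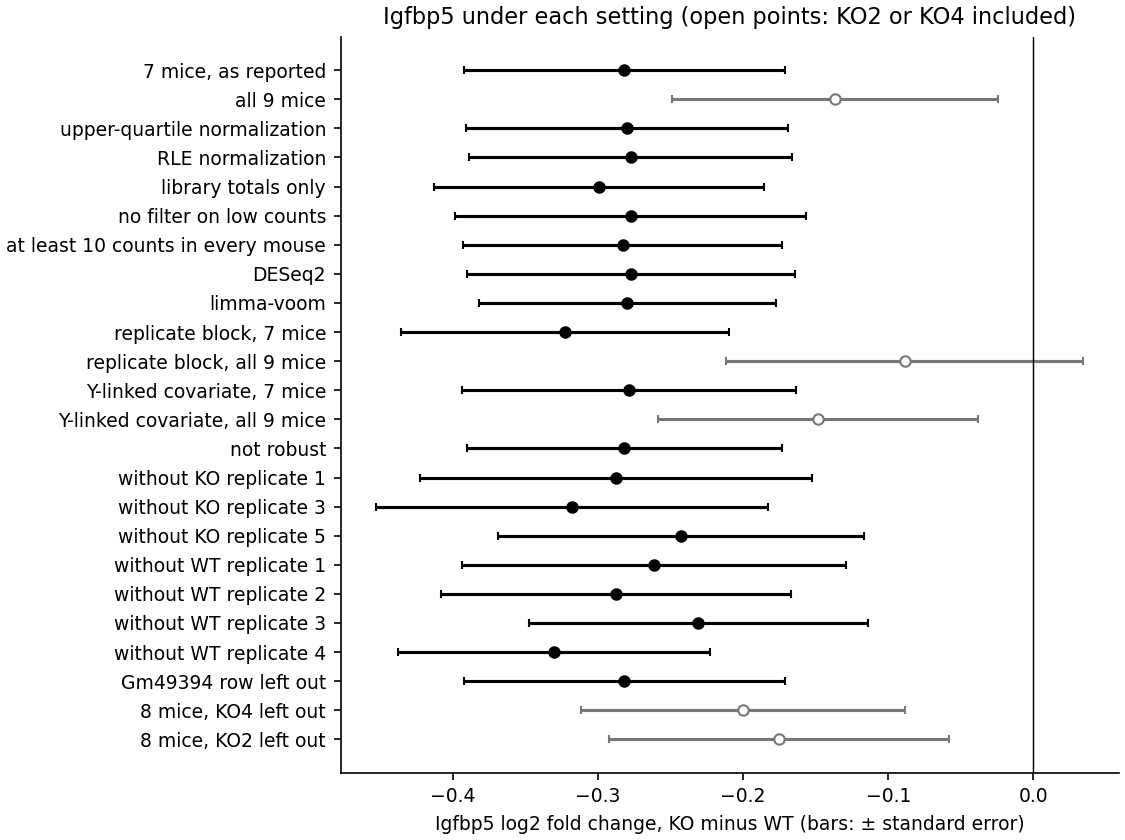
Log2 fold change of Igfbp5 (KO minus WT) with its standard error under each processing setting, filled points for fits without KO2 and KO4 and open points for fits that include KO2 or KO4. The filled points lie between -0.33 and -0.23, and the open ones between -0.20 and -0.09.

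Within the Xist division the sign of Igfbp5 in the 7 mice follows from the lack of overlap, so the values are a description. On the log2 scale KO3 and KO5 were 0.26 below WT3 and WT4 (a difference of -0.26), and KO1 was at -0.28 from WT1 and WT2. With KO2 and KO4 beside KO1 the latter value was -0.07. Igfbp2 (ENSMUSG00000039323, chromosome 1 from 72824503 to 72852474), also a soluble IGF carrier, lies 5.46 kb from Igfbp5 and points towards it. Igfbp2 was counted at 70.9 CPM in KO1, 107 in KO3, 69.0 in KO5, 83.3 in KO2 and 88.1 in KO4, beside 74.5, 83.2, 85.8 and 109 in WT1 to WT4. KO3 and WT4 were the high mice, 1 of each genotype, unlike the order of Igfbp5. The 7-mouse log2 difference of Igfbp2 was -0.11 ± 0.18 (standard error, exact permutation p = 0.514). With 1 mouse left out it ranged from -0.35 (without KO3) to 0.01 (without WT4), so WT4 set its sign in these fits.

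Igfbp7 (ENSMUSG00000036256, chromosome 5 from 77349240 to 77408041) had the largest positive difference of the 10. It was counted at 105 CPM in KO1, 93.0 in KO3, 142 in KO5, 83.3 in KO2 and 138 in KO4, beside 88.5, 112, 85.3 and 100.1 in WT1 to WT4. KO5 and KO4 were above every WT mouse, the other KO mice were not, and KO2 was below them all. In the 7 mice Igfbp7 differed by 0.23 ± 0.16 on the log2 scale (standard error, FDR = 1.00 in edgeR, exact permutation p = 0.314). With 1 mouse left out this ranged from 0.03 (without KO5) to 0.35 (without KO3). KO5 is the library high in adipocyte and Schwann cell markers, and KO4 the library high in cartilage, tendon and fibroblast markers, whose part in this value was not tested. Igfbp7 shares 85 exon bases with Polr2b on the other strand, 7.03% of its exon length.

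Igfbp3 (ENSMUSG00000020427, chromosome 11 from 7206086 to 7213923), in blood the main carrier of the IGFs, was the most variable member, with a coefficient of variation of 21.9% over the 9 mice. It held 276 CPM in KO1, 359 in KO3, 266 in KO5, 249.1 in KO2 and 479 in KO4, beside 271, 344, 347 and 334 in WT1 to WT4. KO4 stood well above the rest, in the library with high cartilage, tendon and fibroblast markers, whose part was not tested. Igfbp3 differed by -0.12 ± 0.14 on the log2 scale in the 7 mice (exact permutation p = 0.457) and by 0.01 ± 0.18 in the 9 (exact permutation p = 0.944). With 1 mouse left out the 7-mouse value ranged from -0.27 (without KO3) to -0.04 (without KO5).

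Igfbp4 (ENSMUSG00000017493, chromosome 11 from 99041244 to 99054392), an inhibitory carrier, ranged from 388 to 487 CPM in the 5 KO mice and from 340.2 to 469.8 in WT, a log2 difference of 0.05 ± 0.13 in the 7 mice (exact permutation p = 0.714) that ranged from -0.06 (without KO5) to 0.12 (without WT1) with 1 mouse left out and was -0.03 without WT3. Igfbp6 (ENSMUSG00000023046, chromosome 15 from 102144362 to 102149511), which prefers IGF2 over IGF1, ranged from 44.2 to 63.2 CPM in KO and from 41.5 to 60.6 in WT, a log2 difference of 0.08 ± 0.15 in the 7 mice (exact permutation p = 0.629) that ranged from 0.01 (without WT2) to 0.20 (without WT4) with 1 mouse left out. The genotypes overlapped in part for both genes. For Igfbp4 KO5 lay above every WT mouse and WT3 below every KO mouse, and for Igfbp6 KO4 lay above every WT mouse and WT2 and WT3 below every KO mouse. Igfbp6 lies on the chromosome of Shank3, 12.6 Mb away from it.

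**Figure D4:**
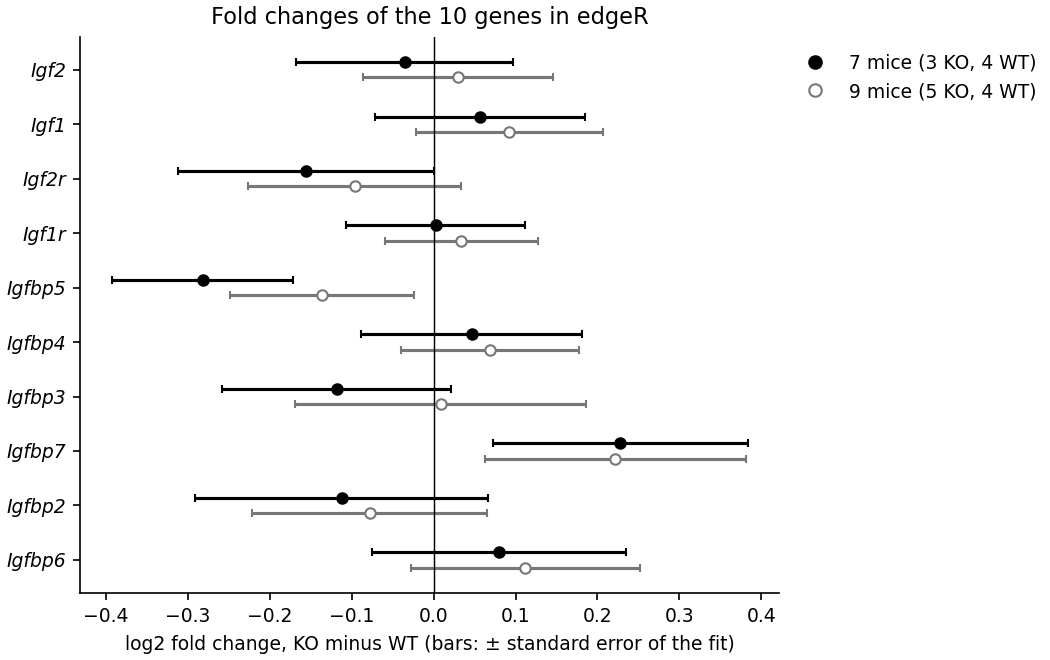
Log2 fold changes (KO minus WT) of the 10 genes from edgeR with their standard errors, filled for the 7 mice and open for all 9. In the 7 mice they run from -0.28 for Igfbp5 to 0.23 for Igfbp7, and adding KO2 and KO4 moves Igfbp5 to -0.14.

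Levels were compared between genes per kilobase of merged exons, in CPM per kb over the 9 mice. Igf2 led with 895 ± 92.9 CPM per kb (SD, n = 9), and every mouse of Igf2 exceeded every mouse of the next gene. Igfbp5 (115 ± 13.4), Igfbp3 (104 ± 22.7), Igfbp4 (96.1 ± 9.94) and Igfbp7 (87.1 ± 18.1) followed, and each overlapped its neighbour in this order. Igfbp2 (46.4 ± 7.79), Igfbp6 (46.2 ± 7.38), Igf2r (42.5 ± 5.96) and Igf1 (39.7 ± 4.52) formed another run of overlapping levels below them, and Igf1r was lowest with 7.63 ± 0.608. Merged exons include those of rare isoforms, so a gene with a long alternative exon is understated on this scale.

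Shares of the 6 binding proteins in their summed level put the same values side by side within each mouse. Per kilobase Igfbp5 made up 19.1% to 27.8% of their summed level, Igfbp3 17.2% to 25.4%, Igfbp4 16.2% to 22.3% and Igfbp7 14.8% to 23.7%. Igfbp2 made up 7.54% to 12.0%, and Igfbp6 had a median of 9.45% and reached 11.1%. The Igfbp5 share was 19.1% to 22.1% in KO1, KO3 and KO5 and 21.2% to 27.8% in WT, so the share overlapped where the CPM did not. The summed level ran from 455 CPM per kb in KO2 to 602 in KO4, and the 4 WT mice lay between 475 and 509. Summed ligands exceeded summed binding proteins by 1.67 times in KO5 to 2.07 times in KO3, with WT from 1.69 to 1.97.

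**Figure D5:**
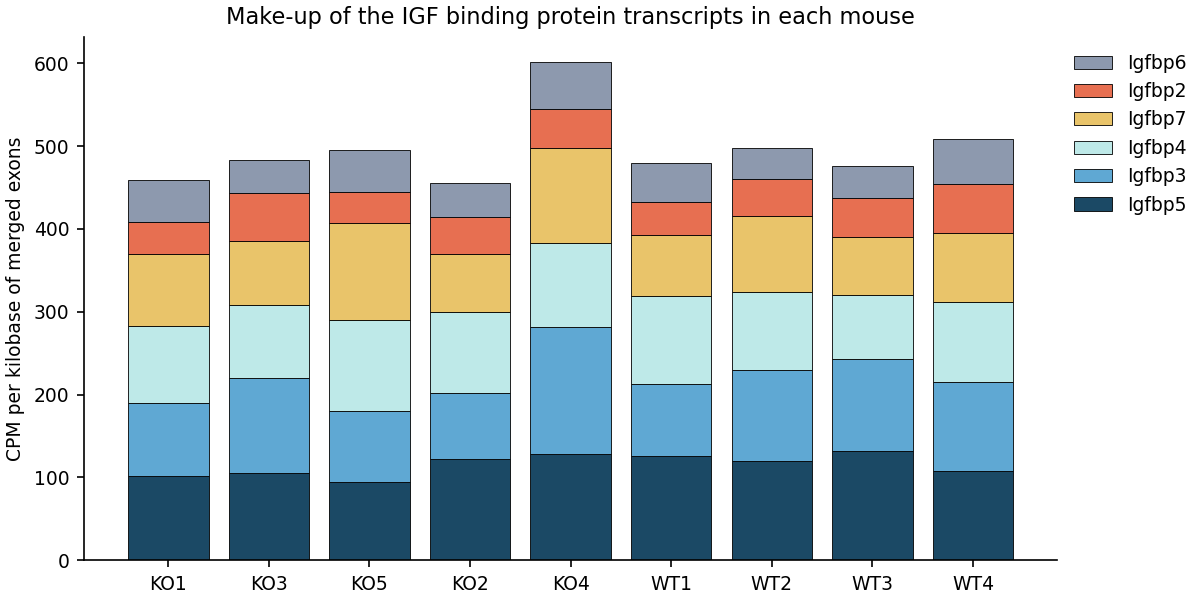
Stacked levels of the 6 binding protein transcripts in CPM per kilobase of merged exons, 1 bar per mouse. Igfbp5 is the lowest block and ranges from 94.6 in KO5 to 132 in WT3, and KO4 has the tallest bar at 602.

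The wider IGF axis was read from a list of 27 other genes (further carriers, proteases, mRNA-binding proteins, the insulin receptor and growth hormone signalling), of which 21 had enough counts to be tested. In the 7 mice 8 were higher and 13 lower in KO, where 52.25% of all genes tested were lower. In edgeR 0 were called and 0 had an unadjusted p below 0.05, beside 2.08% of all genes, and the median log2 fold change was -0.02. Igfbp1, Igfals, Igfbpl1, Ins1, Ins2 and Irs4 were below the count filter. Igfbp1, a carrier made by the liver, was at 1.20 CPM in WT4 and at most 0.289 CPM elsewhere. The most abundant were H19, the noncoding RNA imprinted together with Igf2 and 72.6 kb from it, with a mean of 20252 CPM and a log2 difference of -0.01 (exact permutation p = 0.971), and Grb10, an imprinted brake on the receptors, with a mean of 1286 CPM and a log2 difference of -0.12 (exact permutation p = 0.457). Irs1 and Insr, the docking protein and the insulin receptor, had -0.14 and -0.02, and Ghr, the growth hormone receptor, 0.08 (exact permutation p = 0.429, 0.886 and 0.571). In the 9 mice 1 of the 21 had an unadjusted p below 0.05, beside 2.03% of all genes (1.16% higher in KO). This was Pappa2, a protease that cuts IGFBP3 and IGFBP5, at 5.10 CPM in KO1, 2.85 in KO2, 2.92 in KO3, 6.07 in KO4 and 3.91 in KO5 and 4.09, 1.89, 2.18 and 2.18 in WT1 to WT4, a log2 difference of 0.69 ± 0.28 (edgeR unadjusted p = 0.0307 with FDR = 1.00, exact permutation p = 0.0873). WT1 lay among the KO mice for Pappa2, and in the 7 mice Pappa2 differed by 0.61 (exact permutation p = 0.171). KO4, the highest mouse, is the library high in cartilage, tendon and fibroblast markers, whose part in this value was not tested.

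Of 31 genes downstream of the receptors, from PI3-kinase and AKT to mTOR, FOXO and the MAP kinases, all were tested. In the 7 mice 11 lay higher and 20 lower in KO, beside 52.25% of all genes lower, around a median of -0.02 on the log2 scale. At the study's criterion edgeR called 0, and 1 of the 31 had an unadjusted p below 0.05, beside 2.08% of all genes (0.917% lower in KO). Foxo4, a transcription factor that AKT restrains, was at 73.3 ± 9.49 CPM (SD, n = 3) in KO and 87.9 ± 7.79 CPM (SD, n = 4) in WT, or -0.27 ± 0.12 on the log2 scale (edgeR unadjusted p = 0.0468 with FDR = 1.00, exact permutation p = 0.0857). Map2k1, a MAP kinase kinase named after its values were seen, was the 1 gene of the 31 without overlap in the 7 mice, beside 2.84% of all genes (1.30% lower in KO), at 119 ± 9.57 CPM (SD, n = 3) against 135 ± 6.14 CPM (SD, n = 4), or -0.18 on the log2 scale (FDR = 1.00 in edgeR, exact permutation p = 0.0286, the smallest possible). In the 9 mice 0 of the 31 had an unadjusted p below 0.05 in edgeR, beside 2.03% of all genes, and 0 had groups without overlap, beside 0.686%.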

How the data were processed

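Gene counts of 9 gastrocnemius libraries were used, 5 *Shank3Δ11(−/−)* and 4 *Shank3(+/+)*. Each deposited value is a raw read count per Ensembl gene, which the authors made with HISAT2 on mm10 and featureCounts from concordant alignments. For the annotation, strand setting and multi-mapping reads, the choice is not given in the sources used here. Totals of 26444372 to 40471957 counts gave each member at least 1244 counts in every mouse, so counting error was at most 2.84%, below the spread between mice (7.96% to 21.9%). Positions and exon lengths came from GENCODE M21 on mm10, which held 55230 of the 55471 IDs.

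Genes were filtered with filterByExpr (minimum count 10, total 15), scaled by TMM and tested with edgeR 4.0.16 in R 4.3.3 (robust quasi-likelihood test, 2-sided, Benjamini-Hochberg adjustment across the table). The standard error given for edgeR is the size of the log2 fold change divided by the square root of the test's F value. Calls used the study's criterion, p below 0.05 together with an FDR under 25%. CPM for display used TMM factors of the 9 mice, with a prior count of 2 on the log2 scale. Ratios of 2 genes were compared by a 2-sided exact permutation test over all splits of the mice. The following were named: the 10 members, genes of the IGF axis list with p below 0.05 and its 5 most abundant, downstream genes with p below 0.05, and the 5 genes most correlated with Igf2 and with Igf1. All p behind these names are unadjusted. Alternatives were all 9 mice, other filters and normalizations, DESeq2 1.42.0, limma-voom 3.58.1, a replicate block, a covariate of 4 Y-linked genes and each mouse left out. Nothing in the labels gives the mice's litters. The members and lists were chosen with earlier results of these data known. The tests were tried on simulated data.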

Additional observations from a re-analysis of the deposited data

How the results depend on the processing

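At the study's criterion no member was called under any of the 23 alternatives, and the lowest FDR of a member was 0.998. Igfbp5 stayed lower in KO in all 23 with an unadjusted p below 0.05 in 14 of them (log2 -0.33 to -0.23 with 1 mouse left out, -0.32 to -0.09 otherwise). Fits without KO2 and KO4 reuse the mice whose Igfbp5 levels do not overlap, so their direction was largely fixed in advance. All 14 with a p below 0.05 were such fits, so this number is no separate support. Igfbp5 lost that p without KO1, KO5, WT1 or WT3 and in each fit with KO2 or KO4, added alternatives chosen after seeing the data included (-0.20 with KO4 alone left out and -0.18 with KO2 alone left out). Igf2r, Igfbp6 and Igfbp7 also kept their direction, but not their size. The replicate block in 9 mice gave -0.01 for Igf2r and 0.11 for Igfbp7. The number of genes called was 1 without the filter, 6 in DESeq2, 9 with the replicate block in 7 mice and 2 with it in 9, and 0 to 15 with 1 mouse left out (15 without KO1, 4 without KO3, 1 without WT2). In the block of 7 mice the genotype difference rests on KO1, KO3, WT1 and WT3 alone. The number with an unadjusted p below 0.05 moved from 453 to 968 without KO1, 794 without KO3 and 224 without KO5, to 972 without the count filter, to 844 with the replicate block in 7 mice and to 745 in 8 mice with KO2 left out.

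Signs that turned were all of small, uncalled differences, and the cause was not tested. With all 9 mice Igf2 was at 0.0299 and Igfbp3 at 0.0085. The Y-linked covariate in 9 mice gave 0.0314 and 0.0104, and leaving out KO2 alone 0.0521 and 0.0913. Igf1r was at -0.0146 with library totals only and at -0.0010 with KO4 alone left out. With the replicate block in 7 mice, set by KO1, KO3, WT1 and WT3 alone, Igf2 was at 0.14 and Igf1r at -0.0287. In that fit Igfbp2 was at 0.12, Igfbp3 at 0.0337 and Igfbp4 at -0.0055. With the block in 9 mice Igf2 was at 0.0732 and Igfbp3 at 0.0330. Over the fits with 1 mouse left out, Igf1 ranged from -0.0349 (without WT4) to 0.12, Igf2 from -0.11 to 0.0248 (without KO5), Igf1r from -0.0594 to 0.0652, Igfbp2 from -0.35 (without KO3) to 0.0147 and Igfbp4 from -0.0589 to 0.12. The log2 Igf2 to Igf1 difference ranged from -0.23 to 0.0512 and that of Igf2r to Igf1r from -0.32 to -0.01, with no exact permutation p below 0.200. Deviations of same-numbered KO and WT mice correlated at 0.373, 0.0524, 0.357 and 0.101 across genes for numbers 1 to 4, so the numbers were not taken as pairs.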

Other observations

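The genes whose levels followed the ligands most closely over the 9 mice are given as a description, from Pearson's r of log2 CPM over 10862 genes with a mean of at least 10 CPM. All values of a mouse come from 1 library, so its depth, scaling and tissue make-up enter both genes of a pair, and the highest of many correlations over 9 mice are high by selection. For Igf2 the closest was Gm49394 (r = 0.982), which shares part of its exons, and then Dnal4 (0.974), Ddx41 (0.959), Zfand2b (0.949) and Nsmf (0.947). For Igf1 they were Prpf39 (0.955), Trpm7 (0.942), BC005537 (0.939), Nfat5 (0.928) and Rbm7 (0.924). For Igfbp5, added after its values were seen, Epha7 (0.973) and Padi2 (0.940) came first.

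Igf2os, an antisense transcript that shares 98 exon bases with Igf2, had 0.751% to 1.404% as many counts as Igf2, and was lowest in KO5 at 0.751%.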
